A study of Mus musculus with 6 samples.

Results

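The 9 genes Acat2, Hmgcs1, Mvk, Pmvk, Mvd, Idi1, Fdps, Fdft1 and Sqle encode enzymes of the mevalonate pathway from acetyl-CoA to squalene epoxide, and were examined step by step in mouse liver. They were chosen by gene symbol from a table of 45777 genes, and all 9 had reads in every library. Liver RNA of 3 LT and 3 Fpn-LKO male mice of the C57BL/6 strain on a high-fat diet (HFD), which the methods start in young adulthood, was sequenced, with 1 library per mouse. Both groups carried the floxed ferroportin allele on both chromosomes (Fpn flox/flox), an allele of 129S origin backcrossed to C57BL/6J, and LT were the littermates without Cre. Fpn-LKO mice carried Alb-Cre in addition, in which the albumin promoter drives Cre recombinase in hepatocytes, so that other liver cells keep the gene while their RNA remains in the whole-tissue libraries. Fewer cells of a type and less RNA per cell cannot be told apart in such libraries.

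The mevalonate pathway builds isoprenoids and cholesterol from acetyl-CoA in the cytosol and endoplasmic reticulum, and the liver is a main site of this synthesis. When membrane cholesterol is low, the transcription factor SREBP2 is released by proteolysis and induces the genes of the pathway. The products up to farnesyl diphosphate also feed ubiquinone, dolichol and protein prenylation, whereas squalene synthase and squalene epoxidase commit carbon to sterols.

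The total counts on genes lay between 43086184 and 47778683 per library, and all 6 libraries carried the same batch label. No pair of libraries of a group held the same counts within sampling noise, as chi-square per degree of freedom was at least 65.8 for every pair. Slc40a1, which encodes ferroportin, stood at 154, 180 and 126 CPM (counts relative to the TMM-scaled library size) across LT replicates 1 to 3, against 143, 143 and 176 CPM across the corresponding Fpn-LKO replicates (log2 fold change 0.0073, with a standard error, SE, of 0.16 and an adjusted p of 0.995 in the edgeR quasi-likelihood fit, Benjamini-Hochberg adjusted). The gene-level count includes exons outside any deleted part and cells without Cre, so it checks the labels poorly, and its mean was not lower in Fpn-LKO (154 ± 18.7 CPM) than in LT (153 ± 27.0 CPM, SD, n = 3 each). The group name Fpn-LKO below means the libraries so labelled, and every direction rests on those labels.

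Levels were compared between genes in TPM, a unit scaled to transcript length and to a fixed total per library. In LT, Fdps had the highest level of the 9 genes with 43.6 ± 3.88 TPM, and was followed by Hmgcs1 with 38.4 ± 20.1 and Acat2 with 35.9 ± 7.05 TPM (SD, n = 3 for each level in this paragraph). The ranges of these 3 genes overlapped over the LT libraries. Fdft1 with 17.4 ± 3.77 TPM and Idi1 with 16.3 ± 3.10 TPM came next and were not separated from each other, but both lay below the lowest Acat2 value. The highest Fdft1 value of 21.4 TPM lay above the lowest Hmgcs1 value of 21.2 TPM, so Fdft1 and Hmgcs1 overlapped. Pmvk had 10.8 ± 1.65, Sqle 6.89 ± 2.06 and Mvk 5.29 ± 0.370 TPM, with overlap between Pmvk and Sqle and between Sqle and Mvk. Mvd, the decarboxylase, was lowest with 1.63 ± 0.425 TPM and did not reach the lowest Mvk value. In Fpn-LKO the order of the means was Acat2, Fdps, Hmgcs1, Fdft1, Pmvk, Idi1, Mvk, Sqle and Mvd. Idi1 thus had rank 5 in LT and rank 6 in Fpn-LKO, where its 6.91 ± 2.2 TPM lay below every Pmvk value of that group. Over all 6 libraries together, Mvk and Mvd were the only neighbours in the order whose ranges did not overlap.

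**Figure D1:**
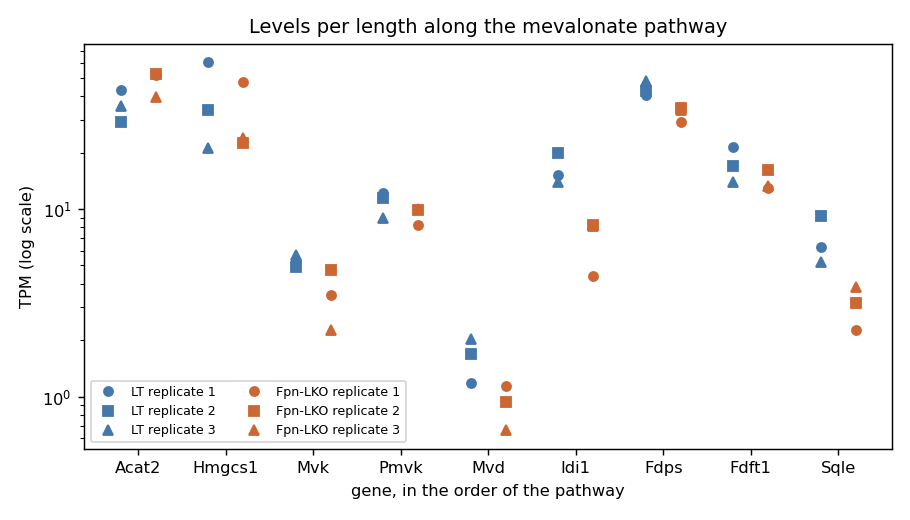
Deposited TPM (log axis) of the 9 mevalonate genes in the order of the pathway, with 1 point per library, LT in blue and Fpn-LKO in orange, and symbols for replicates 1 to 3. The mean ranged from 1.63 TPM for Mvd to 43.6 TPM for Fdps in LT, and all 3 Idi1 and all 3 Sqle values of Fpn-LKO lay below those of LT.

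Promoter sequence was read from RefSeq (build GRCm38.p6) for 6 members, all but Fdps, Fdft1 and Sqle, and 4 are shown because these genes span the observed differences, from Acat2, the only member with a positive log2 fold change, through Hmgcs1 with overlapping groups, to Mvk and Idi1, whose Fpn-LKO values all lay below LT. Capitals mark CACNCCAC, a core of the sterol regulatory element that SREBP2 binds, CCAAT, the box bound by NF-Y, and GGGCGG, the box bound by Sp1, on either strand (GTGGNGTG, ATTGG and CCGCCC on the other), and no match overlapped another. Acat2 is shown from chr17:12960748-12960975 on the minus strand, Hmgcs1 from chr13:119690101-119690350, Mvk from chr5:114444074-114444263 and Idi1 from chr13:8885537-8885565, the last 3 on the plus strand. The windows of Acat2 and Mvk leave out bases that another annotated transcript covers. For Idi1 only the stretch that holds its GC box and the first of its ATTGG matches is printed, since a longer annotated transcript begins upstream of it.
Acat2: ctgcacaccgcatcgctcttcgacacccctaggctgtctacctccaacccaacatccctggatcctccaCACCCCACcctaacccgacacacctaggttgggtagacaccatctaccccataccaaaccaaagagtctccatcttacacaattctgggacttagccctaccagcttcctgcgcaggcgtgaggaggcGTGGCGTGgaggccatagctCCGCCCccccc
Hmgcs1: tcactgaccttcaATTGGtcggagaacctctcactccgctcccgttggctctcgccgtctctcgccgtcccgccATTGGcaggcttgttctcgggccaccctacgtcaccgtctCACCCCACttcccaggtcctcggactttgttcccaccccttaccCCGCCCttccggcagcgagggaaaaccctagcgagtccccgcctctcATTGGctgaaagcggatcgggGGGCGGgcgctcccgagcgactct
Mvk: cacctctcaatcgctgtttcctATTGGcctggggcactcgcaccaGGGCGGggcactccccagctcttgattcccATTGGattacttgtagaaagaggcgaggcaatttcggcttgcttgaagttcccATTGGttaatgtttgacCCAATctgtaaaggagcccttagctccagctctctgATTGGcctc
Idi1: CCGCCCtagccttgcctccagctgATTGG

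In the 250 bases before the start, CACNCCAC was found in Acat2, at 181 and, on the other strand, at 53 bases before the start, and in Hmgcs1 at 136 bases before it. Among 32817 promoters of the same length, 5.29% held this motif. CCAAT or ATTGG was found in Hmgcs1, Mvk, Pmvk, Mvd and Idi1, against 33.8% of all promoters, and Mvk held 5 such matches, the most of the 6 genes, whereas Acat2 held none. GGGCGG or CCGCCC was found in Acat2, Hmgcs1, Mvk, Mvd and Idi1, against 32.7% of all promoters, and CACGTG, the E-box, in no member and in 6.02% of all promoters. A match describes only the letters in this window.

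To ask whether the genotypes differed along the pathway, the counts were compared by the quasi-likelihood test of edgeR over 17274 genes, adjusted by Benjamini-Hochberg over all of them. None of the 9 members had an adjusted p-value under 0.05, a threshold that 0.0232% of all genes passed. At an unadjusted p-value under 0.05, 6 members lay lower in Fpn-LKO (Mvk, Mvd, Idi1, Fdps, Fdft1 and Sqle), against 2.19% of all genes tested in that direction. Under exactTest and under DESeq2's Wald test, which called 0.365% and 0.417% of all genes, the same 2 members passed, Idi1 and Sqle, both lower. The log2 fold change was negative for 8 members and positive for Acat2, and its median over the members was -0.55, beside -0.0040 over all genes tested. For 6 members every Fpn-LKO value lay below every LT value (Mvk, Pmvk, Idi1, Fdps, Fdft1 and Sqle), against 5.34% of all genes with no overlap in this direction, and 0 members lay wholly above LT, against 5.25% of all genes. For 1 gene, the smallest p-value that exact permutation of these mice can give is 0.1.

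The first steps condense acetyl-CoA. Acat2, the cytosolic thiolase that forms acetoacetyl-CoA, stood at 63.8, 48.2 and 63.8 CPM across LT replicates 1 to 3, against 87.4, 72.6 and 62.0 CPM across Fpn-LKO replicates 1 to 3. Fpn-LKO replicates 1 and 2 lay above all LT values and replicate 3 within them, for a log2 fold change of 0.34 (SE 0.17 and adjusted p = 0.982). Hmgcs1, the cytosolic synthase that adds the next acetyl unit, stood at 151, 94.8 and 65.4 CPM across the LT mice, against 135, 53.0 and 62.9 CPM across Fpn-LKO. It varied most within the groups of all members, with SDs of 43.2 and 44.7 CPM around means of 104 and 83.6 CPM, and replicate 1 was the highest in both groups. Its log2 fold change was -0.31 (SE 0.41 and adjusted p = 0.995), and became 0.062 without LT replicate 1.

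The middle steps phosphorylate and decarboxylate mevalonate, and their genes had few reads. Mvk, mevalonate kinase, stood at 6.55, 6.79 and 8.43 CPM across the LT mice, against 4.82, 5.53 and 2.95 CPM across Fpn-LKO. All Fpn-LKO values lay below LT, by 38.9% in the fit (log2 fold change -0.71, with an SE of 0.26 and an adjusted p of 0.982), and replicate 3 was the highest LT and the lowest Fpn-LKO library. Pmvk, the kinase that adds the next phosphate, stood at 10.2, 10.8 and 9.21 CPM across the LT mice, against 7.92, 7.84 and 9.07 CPM across Fpn-LKO. The groups did not overlap, but Fpn-LKO replicate 3 lay close to LT replicate 3, and the log2 fold change was small at -0.28 (SE 0.14 and adjusted p = 0.982). Mvd, the decarboxylase that yields isopentenyl diphosphate, stood at 1.57, 2.38 and 3.29 CPM across the LT mice, against 1.66, 1.16 and 0.948 CPM across Fpn-LKO. Replicate 1 had nearly the same value in both groups, while the other libraries were separated (log2 fold change -0.94, with an SE of 0.37 and an adjusted p of 0.982). Mvd was counted from 44 to 136 reads per library, and 44 reads have a 95% Poisson interval of 32.0 to 59.1, which covers counting error only.

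The isomerase gene had the largest difference among the members as counted, a rank that is lost when the reads of a near-identical copy are added. Idi1, which converts isopentenyl to dimethylallyl diphosphate, stood at 30.8, 45.4 and 35.1 CPM across the LT mice, against 10.1, 15.7 and 17.7 CPM across Fpn-LKO. Mean levels were 37.1 ± 7.53 CPM for LT and 14.5 ± 3.92 CPM for Fpn-LKO (SD, n = 3 each), and the lowest LT library stood above the highest Fpn-LKO library. The log2 fold change was -1.35 (SE 0.24), or 60.9% lower. Idi1 ranked 23 of 17274 genes by its p-value in the quasi-likelihood fit, but its adjusted p was 0.408. The adjusted p was 0.000367 with exactTest and 9.94e-05 with DESeq2, and ranged from 9.94e-05 to 0.948 over all alternative fits, with a log2 fold change from -1.52 to -1.15. Summed with the reads of a near-identical pseudogene, Gm35570, Idi1 differed by -0.52 in mean log2 CPM. This was smaller in size than the fitted values of Sqle, Mvd and Mvk, and close to those of Fdps and Fdft1. A difference of mean log2 CPM and a fitted value are unlike measures, so close values cannot be ordered.

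The next enzymes assemble the longer chains. Fdps, farnesyl diphosphate synthase, stood at 37.4, 44.0 and 53.3 CPM across the LT mice, against 30.4, 29.5 and 32.4 CPM across Fpn-LKO. The Fpn-LKO libraries were close together (SD 1.49 CPM, against 7.98 in LT), and all lay below LT (log2 fold change -0.55, with an SE of 0.14 and an adjusted p of 0.844). Fdft1, squalene synthase, stood at 60.3, 54.7 and 46.0 CPM across the LT mice, against 36.4, 39.8 and 35.4 CPM across Fpn-LKO. Here too the Fpn-LKO values lay below LT with the smaller spread (log2 fold change -0.53, with an SE of 0.13 and an adjusted p of 0.747). In TPM the Fdft1 groups overlapped, with 13.9 to 21.4 in LT and 12.9 to 16.1 in Fpn-LKO, and so did those of Pmvk, whereas those of Mvd did not.

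Sqle, the epoxidase that puts the first oxygen on squalene and a control point of the pathway, stood at 12.3, 20.2 and 12.5 CPM across the LT mice, against 5.03, 5.80 and 8.0 CPM across Fpn-LKO. LT replicate 2 was the highest library and all Fpn-LKO values lay below LT. Mean levels were 15.0 ± 4.49 CPM for LT and 6.28 ± 1.54 CPM for Fpn-LKO (SD, n = 3 each). This was 58.1% lower in the fit, with a log2 fold change of -1.25 (SE 0.26). The adjusted p was 0.590, against 0.0108 with exactTest and 0.0031 with DESeq2, and it ranged from 0.0031 to 1.00 over all alternatives. Idi1 and Sqle, with the largest differences, had Fpn-LKO replicate 1 as their lowest library, whereas Mvk and Mvd had Fpn-LKO replicate 3.

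**Figure D2:**
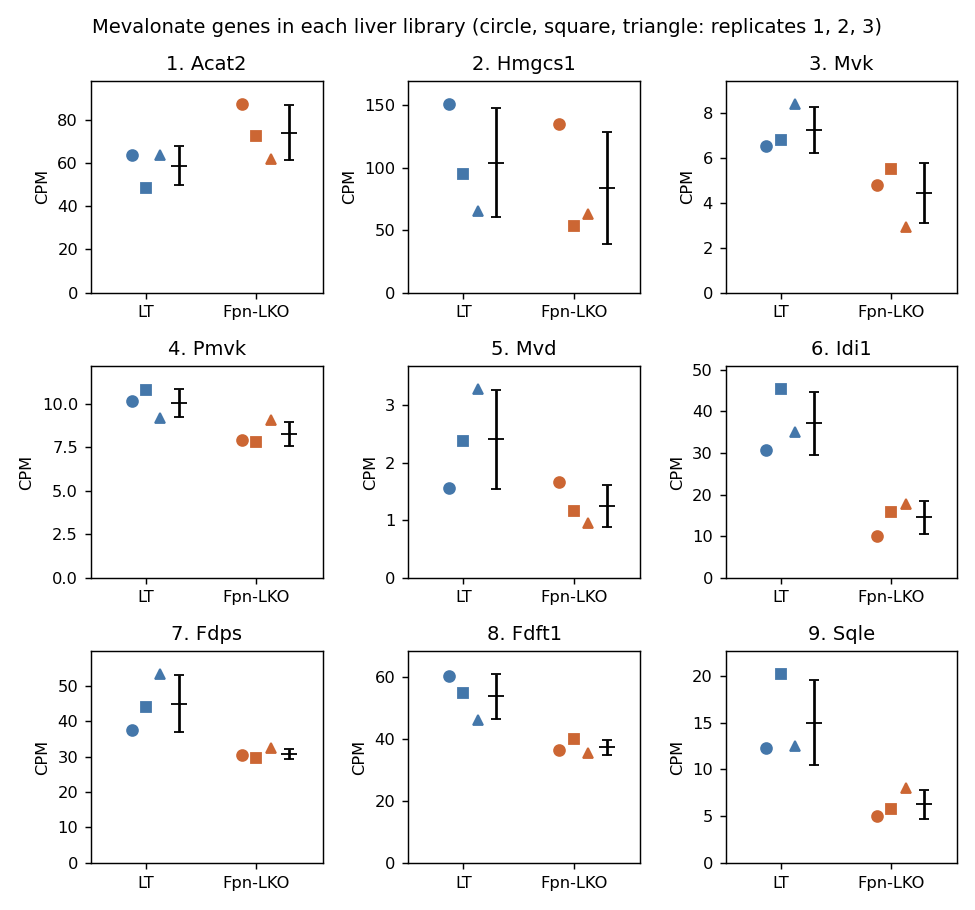
TMM-scaled CPM (linear axes from 0) of each member in each library, with 1 symbol per replicate and the mean with its SD (n = 3) in black beside the points. The groups were separated for Mvk, Pmvk, Idi1, Fdps, Fdft1 and Sqle, and overlapped for Acat2, Hmgcs1 and Mvd.

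**Figure D3:**
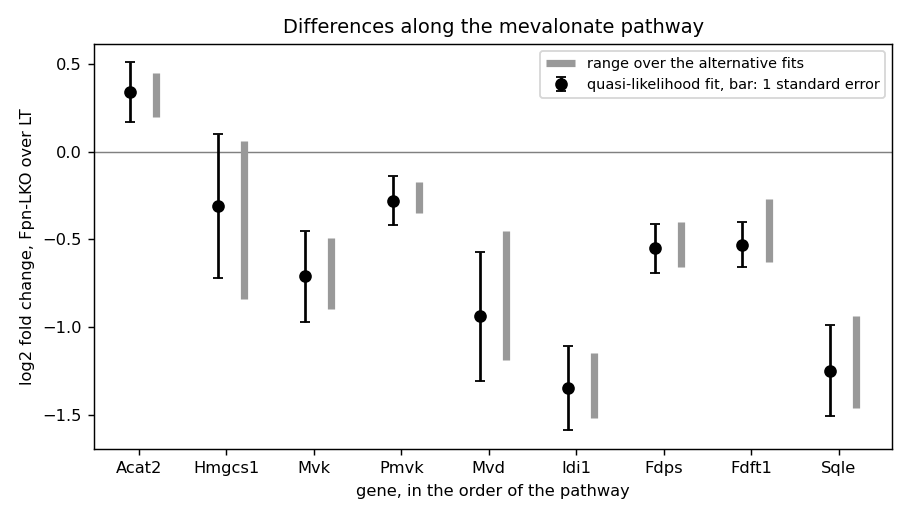
Log2 fold change of Fpn-LKO over LT for each member in pathway order, with 1 standard error (black) and, in grey, the lowest to highest value over the 14 alternative fits. Idi1 at -1.35 and Sqle at -1.25 were lowest, Acat2 at 0.34 was the only positive value, and the grey range crossed 0 for Hmgcs1 alone.

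Seen by library rather than by gene, the highest value of a member fell in an LT library for 8 of the 9 genes and in Fpn-LKO replicate 1 for Acat2. The lowest value was in a Fpn-LKO library for 8 genes and in LT replicate 2 for Acat2. Relative to the LT mean of each gene, the median over the 9 members was -0.55, -0.59 and -0.63 on the log2 scale in Fpn-LKO replicates 1, 2 and 3, and between -0.14 and 0.037 in the LT libraries. The LT values of each gene average to that reference by construction. The 3 Fpn-LKO libraries thus had similar medians although different genes were lowest in each.

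The ratio of each gene to the gene before it was compared in each library, since a ratio within a library does not depend on its scaling. Of the 8 ratios, Fdps over Idi1 was the only one without overlap. Its log2 value was 0.28, -0.048 and 0.60 across LT replicates 1 to 3, against 1.59, 0.91 and 0.87 across Fpn-LKO. The difference of the means was 0.84 (exact two-sided permutation test, p = 0.1, the smallest possible, adjusted p = 0.4 over the 8 ratios). With the reads of Gm35570 added to Idi1, the difference was -0.0094 and the groups overlapped (-1.22, -1.04 and -0.84 for LT, and -0.99, -0.80 and -1.34 for Fpn-LKO), so this separation holds only for the counts as deposited. Idi1 over Mvd then differed by 0.40 in place of -0.46, with overlap in both cases. Sqle over Fdft1 had means of -1.87 ± 0.43 in LT and -2.59 ± 0.39 in Fpn-LKO (SD, n = 3 each), and LT replicate 1 at -2.30 lay below Fpn-LKO replicate 3 at -2.15 (exact permutation p = 0.2, adjusted p = 0.4). Hmgcs1 over Acat2 differed by -0.69 and Mvd over Pmvk by -0.64 (exact permutation p = 0.2 and adjusted p = 0.4 for each). Fdft1 over Fdps differed by 0.011, with -0.21 to 0.69 in LT and 0.13 to 0.43 in Fpn-LKO. No ratio passed its adjusted threshold, which this number of mice cannot reach.

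**Figure D4:**
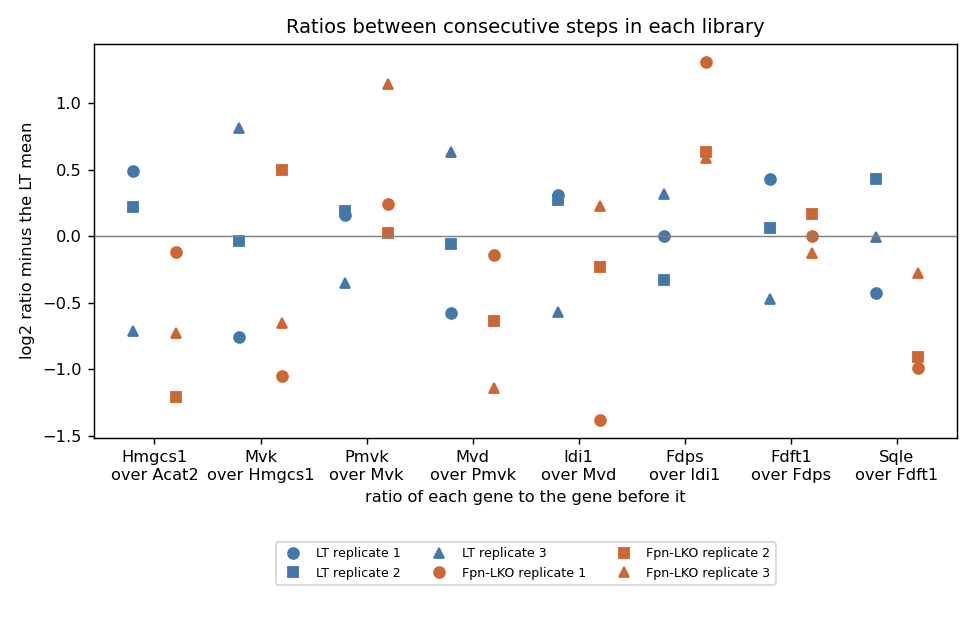
Log2 ratio of each member to the member before it, minus the LT mean of that ratio, with 1 point per library, LT in blue and Fpn-LKO in orange. Fdps over Idi1 was separated between the groups, 0.84 higher in Fpn-LKO for the counts as deposited and -0.0094 with the reads of Gm35570 added to Idi1, and the other 7 ratios overlapped.

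Several members share sequence with other genes, and the authors' counting could have split such reads (coordinates are RefSeq genes on GRCm38, of which the deposited identifiers are NCBI gene numbers). Acat2 (gene 110460, chr17:12943042-12960725, minus strand) shares 97.7% identity over 1477 bases with its neighbour Acat3, which stood at 140, 99.5 and 137 CPM across the LT mice, against 248, 166 and 129 CPM across Fpn-LKO (log2 fold change 0.53, with an SE of 0.25 and an adjusted p of 0.982). The sum of both had 184 ± 31.7 CPM in LT and 255 ± 73.9 CPM in Fpn-LKO (SD, n = 3 each), a difference of 0.44 in mean log2 CPM with overlap (exact permutation p = 0.3), so the sign of Acat2 did not turn. A transcript of Tcp1 also shares 445 bases with Acat2, and Tcp1 had a log2 fold change of -0.081 with overlap. Idi1 (gene 319554, chr13:8885606-8892396, plus strand) has 5 near-identical copies. The longest match, Gm13502, is 100% identical over 684 bases and was not among the genes counted here. Of the copies that were counted, Gm35570, a processed pseudogene in GENCODE (RefSeq chr5:87368786-87372622), shares 97.7% over 681 bases and had many reads. Gm35570 stood at 56.4, 45.1 and 60.4 CPM across the LT mice, against 50.2, 35.7 and 64.5 CPM across Fpn-LKO, with overlap (log2 fold change -0.11). Summed with Gm35570, Idi1 had 91.1 ± 4.14 CPM in LT and 64.6 ± 15.9 CPM in Fpn-LKO (SD, n = 3 each), still without overlap but with a difference of -0.52 in mean log2 CPM. How many Gm35570 reads came from Idi1 was not tested, so the size of the Idi1 difference is uncertain. The margin given by this sum leaves out the copies that were not counted.

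Fdps (gene 110196, chr3:89093588-89101967, minus strand) has 8 near-identical copies, and the most counted of those in the table, Gm3571, had at most 26 reads per library against at least 1377 for Fdps. Fdft1 (gene 14137, chr14:63145150-63181687, minus strand) has the copy Gm6781, with at most 27 reads, and shares 774 bases of its 3′ end with Ctsb on the opposite strand. Ctsb, a lysosomal protease, had 282 to 309 CPM in LT and 341 to 386 CPM in Fpn-LKO, higher without overlap (log2 fold change 0.30, adjusted p = 0.982), which is the opposite of Fdft1. Whether strand was used in counting is not given in the sources used here, so reads in the shared bases cannot be told apart. Hmgcs1 (gene 208715, chr13:119690351-119708260, plus strand) shares 462 bases with the antisense gene Gm48342. Mvk (gene 17855, chr5:114444264-114460591), Pmvk (gene 68603, chr3:89454541-89469014), Mvd (gene 192156, chr8:122433596-122443422, minus strand) and Sqle (gene 20775, chr15:59315092-59331193) had no such copy at 90% identity over 100 bases, and the RNA gene Gm51557 lies inside Mvd.

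Other genes of cholesterol metabolism were counted from fixed lists. Over all genes tested, 2.19% lay lower with an unadjusted p-value under 0.05, 5.34% lay wholly below LT and 5.25% wholly above. Of 11 genes of the later sterol steps, none passed the adjusted threshold of the edgeR fit, 4 had an unadjusted p-value under 0.05, all lower, 10 had a negative log2 fold change and the median was -0.26. Those without overlap were Msmo1, the C4-methyl sterol oxidase (94.3 ± 8.73 against 45.4 ± 11.1 CPM, SD, n = 3 each, log2 fold change -1.05, adjusted p = 0.452), Cyp51, which demethylates lanosterol (log2 fold change -0.60), and Lss, which closes the sterol ring (log2 fold change -0.49). Msmo1 passed with exactTest and with DESeq2, both run as alternatives. Of the 11 genes of SREBP2 control and sterol uptake, 10 were tested and none passed. Of these 10, 6 had a negative log2 fold change, the median was -0.10, 3 lay wholly below LT and 1 wholly above. Insig1, an SREBP target that retains SCAP in the endoplasmic reticulum, stood at 137, 125 and 158 CPM across the LT mice, against 83.0, 81.3 and 83.0 CPM across Fpn-LKO (log2 fold change -0.76, adjusted p = 0.382). Stard4, a sterol carrier, had a log2 fold change of -0.33 without overlap, whereas Mbtps2, a protease that releases SREBP, had 0.64 with higher values in all Fpn-LKO libraries. From this list 2 genes passed with exactTest and with DESeq2, Insig1 among them. Srebf2, which encodes SREBP2, is named as a reference point chosen after its values were seen, and had a log2 fold change of -0.035 with overlap.

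The isoprenoid branches, which draw on the products of Idi1 and Fdps, had a median of 0.024. No member of these 12 was without overlap, against 5.34% of all genes lower and 5.25% higher. Among 8 paralogs and ketone body enzymes, 7 were tested, none passed, and Bdh1, which forms the ketone body hydroxybutyrate, was the only one without overlap (log2 fold change -0.52). Of 11 fatty acid synthesis genes none passed, and Acly, Acaca and Fasn, which supply acetyl-CoA, malonyl-CoA and the fatty acid chain, lay lower without overlap (log2 fold changes -0.54, -0.71 and -0.96). The summed level of this list overlapped widely, with 877 to 1096 CPM in LT and 589 to 1736 CPM in Fpn-LKO. This sum depends heavily on a single gene that had from 46.1 to 1222 CPM across Fpn-LKO, and it says little of the others. Of the 11 genes, 8 had a negative log2 fold change and the median was -0.46. None of the 8 fasting genes was without overlap, and their median was 0.038. In lists as short as the isoprenoid and fasting ones, such a count cannot be told apart from the shares over all genes.

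Markers of other cell types and of time of day were read beside these results. The 10 hepatocyte markers summed to 65188 to 81052 CPM in LT and 68428 to 76691 CPM in Fpn-LKO, all 10 were detected, and Hnf4a alone was without overlap (log2 fold change 0.32). The 8 endothelial markers, all detected, summed to 330 to 377 CPM in LT and to at most 322 CPM in Fpn-LKO, lower without overlap. No single endothelial marker was without overlap or past the threshold, 5 of the 8 had a negative log2 fold change, and Lyve1, named after its values were seen, was the only one with an unadjusted p-value under 0.05, at a positive log2 fold change of 1.30. The 17 clock genes, of which 16 were tested, summed to 611 to 615 CPM in LT and 531 to 575 CPM in Fpn-LKO, also without overlap. Per3, Tef and Bhlhe40 lay lower without overlap (log2 fold changes -0.53, -0.33 and -0.45), and the other clock genes tested overlapped. Of the 16, 9 had a negative log2 fold change, the median was -0.079 and none passed the threshold of the edgeR fit. None passed with exactTest, and Per3 alone passed with DESeq2 (adjusted p = 0.0403). The part of the endothelial and clock differences in the mevalonate result was not tested. The sums of the 10 macrophage, 8 stellate, 7 cholangiocyte and 8 blood markers overlapped between the groups, and none of these genes was at 0 in all libraries. RNAs without a poly(A) tail took 7.65% to 8.76% of the counts in LT and 10.2%, 3.29% and 4.49% in Fpn-LKO replicates 1 to 3, a spread that enters TPM directly.

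Among 6873 other genes with a mean of at least 10 CPM, the 5 whose log2 CPM followed the mean z-score of the 9 members most closely over the 6 libraries were Odf2l, Amn1, Taf1, Gm42127 and Marchf8, with Pearson's r between 0.969 and 0.983. The table lists Marchf8 under a date-like symbol, and it was named by its gene identifier. The 6 points share the group difference and the library scaling, so the lower Fpn-LKO values of all 5, with log2 fold changes from -0.67 for Amn1 to -0.26 for Taf1, follow from how they were chosen.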

How the data were processed

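RNA-seq of 6 mouse livers (3 LT, 3 Fpn-LKO) was analysed, with groups and replicate numbers from the labels. The labels give an mRNA kit and 1 batch, and the methods a total RNA kit. The authors mapped the reads on mm10 and, per gene, deposited StringTie read counts without normalization, FPKM (scaled to length and library size, not used for results) and TPM (scaled to a fixed total). Counts were tested with edgeR 4.0.16 in R 4.3.3 (quasi-likelihood, TMM, Benjamini-Hochberg, threshold 0.05) on genes with at most 1 library at 0 reads, which were 17274 of 45777 genes. All 9 members passed this filter. The standard error was derived from the F statistic. The members, lists, tests and the rule for naming genes (all members, list genes without overlap and with p under 0.05, copies and overlapping genes, and the 5 genes most alike) were chosen with earlier results of these data known. Gene lists were written by hand. Copies were searched with BLAST 2.17.0 in GENCODE transcripts, and the summed copies were added after seeing the data. The 3 count tests were tried on simulated data first. The alternatives were exactTest (the methods' test), DESeq2 1.42.0, RLE size factors, other filters, limma 3.58.1 on log2(TPM + 1) and log2(TPM + 0.1), the replicate block and leaving out each mouse. Same-numbered libraries deviated together with r = 0.23, 0.0090 and 0.11, and differently numbered ones with r from -0.18 to 0.084. These values cannot settle whether the numbers pair the mice, and the main fit treated the mice as unpaired. No source says more of the replicates than 1 mouse each, and p-values measure the spread between these mice. Some genes of the lists are counted but not reported by name here.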

Additional observations from a re-analysis of the deposited data

How the results depend on the processing

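Of the 9 members, 0 passed in every fit except exactTest and DESeq2, where 2 did (Idi1 and Sqle). The other cholesterol pathway genes went from 0 to 3 with the same 2 tools. Among all genes tested, 4 passed, against 63 with exactTest, 72 with DESeq2, 7 with limma on either TPM scale, 0 with the replicate block, and 0 to 6 when 1 mouse was left out. The block changed no call among the members, and with it the ratios keep their values by construction. The median log2 fold change of the members was -0.42 on log2(TPM + 1), where the median of all genes was 0.083, and -0.77 to -0.49 when 1 mouse was left out. The number of members wholly below LT was 5 in TPM (2.3% of all genes) and 6 to 8 when 1 mouse was left out (9.37% to 11.2% of all genes, against 5.34% with all mice). The number of ratios without overlap was 2 in TPM and 1 to 3 when 1 mouse was left out, where fewer values overlap less easily. Hmgcs1 reversed to 0.062 without LT replicate 1 and ranged from -0.84 to 0.062 when 1 mouse was left out, and the cause was not tested. No other member changed sign. With the reads of Gm35570 added, a choice made after seeing the data, Idi1 moved to -0.52 and 0 ratios were without overlap, and with those of Acat3 added Acat2 moved to 0.44. Depth limits Mvd most.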
